A study of Mus musculus with 9 samples.

Results

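A set of 8 nuclear genes that remodel mitochondria in low oxygen, or that are the constitutive partners of such genes, was followed across the 9 retinal samples of the series. They were the rows of the gene count table named Ndufa4l2, Ndufa4, Cox4i2, Cox4i1, Bnip3, Bnip3l, Higd1a and Hilpda, 8 of 54532 genes, and all 8 passed the filter on low counts that left 17540 genes for testing. Hypoxia-inducible factors (HIFs) are transcription factors that are stabilized when oxygen falls, and they shift cells from oxidative phosphorylation towards glycolysis. Part of that shift is an exchange of parts in the respiratory chain. Ndufa4l2 is a HIF target related to Ndufa4, which was first assigned to complex I and is now placed at cytochrome c oxidase, and Cox4i2 is the oxygen-regulated isoform of cytochrome c oxidase subunit IV, of which Cox4i1 is the ubiquitous isoform. Bnip3 and Bnip3l (also called NIX) encode outer-membrane receptors that mark mitochondria for removal by autophagy, Higd1a encodes a small inner-membrane protein that associates with the respiratory chain in hypoxia, and Hilpda encodes an inhibitor of triglyceride lipolysis that favours lipid droplets.

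The mice were wild-type C57BL/6 and every sample was total RNA from retina at postnatal day 17. Control mice were kept in room air and are labelled as given DMSO, the vehicle. OIR mice went through oxygen-induced retinopathy, in which hyperoxia obliterates the posterior retinal vessels of pups and return to room air leaves the inner retina ischemic. These mice received DMSO by injection at day 12. Treated OIR mice went through the same model and received 32-134D, a small-molecule HIF inhibitor, given as 70 ng in the treatment label and as 70 ng/µl in the protocol, by a single intraocular injection at day 12. Each group had 3 mice (labelled 1, 6 and 7 in the control group, 3, 5 and 6 in the OIR group, and 2, 5 and 10 in the treated OIR group), with 16028731 to 27213184 counts per mouse. The labels do not say whether retinas were pooled or which mice were littermates, so the p-values below measure the spread between these samples. Each of the 36 pairs of libraries differed by more than sampling noise (chi-square per degree of freedom 10.1 to 372).

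Treated OIR mouse 2 stood apart in its makeup. Genes of the crystallin family, the proteins of the lens, held 15.8% of its counts and 0.0087 to 0.186% in the other 8 mice. The 10 lens markers summed to 123600 CPM (the counts of a gene relative to the scaled library total) in it and to 13.6 to 967 CPM elsewhere, and its 6 retinal ganglion cell markers were the lowest, at 39.4 CPM against 94.8 to 1599 CPM. The rod markers were high in all 9 mice (34010 to 65550 CPM) and no marker of the 15 cell types examined was at 0 in all mice. Values of the members and the list medians that use the treated group are therefore also given without mouse 2. The ganglion cell markers also differed by group, at 1108 to 1599 CPM in control and 94.8 to 518 CPM in OIR mice, with 874 and 904 CPM in treated OIR mice 5 and 10. The 5 amacrine markers summed to 540.5 to 745 CPM in control and 171 to 344 CPM in OIR mice. Their sums were 134, 381.5 and 553 CPM in treated OIR mice 2, 5 and 10. The part of this makeup in the values below was not tested. In bulk retina, fewer cells of a type and less RNA per cell cannot be told apart.

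The windows before the annotated starts of the members differed in their HIF core motifs. They are shown because Bnip3 resembled other HIF targets across the mice, Hilpda overlapped between the groups in every comparison, and Ndufa4 is the constitutive partner of the one member called. The motifs searched were ACGTG and GCGTG on both strands, in the 250 bases before each start in RefSeq (GRCm38.p6). Of all 32851 windows of that length, 16.6% held ACGTG, 28.2% held GCGTG and 38.6% held either. The table held 4 of the 8 members, and Ndufa4l2, Cox4i2, Cox4i1 and Bnip3l had no entry. Capitals mark each match, which on the opposite strand is read as CACGT or CACGC.
Bnip3, chr7:138909507-138909756, minus strand: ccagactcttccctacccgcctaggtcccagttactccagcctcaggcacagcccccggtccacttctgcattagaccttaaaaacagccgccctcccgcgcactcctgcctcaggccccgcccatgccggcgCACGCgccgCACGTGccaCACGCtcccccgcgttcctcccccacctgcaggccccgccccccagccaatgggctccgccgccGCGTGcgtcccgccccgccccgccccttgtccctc
Hilpda, chr6:29272376-29272625, plus strand: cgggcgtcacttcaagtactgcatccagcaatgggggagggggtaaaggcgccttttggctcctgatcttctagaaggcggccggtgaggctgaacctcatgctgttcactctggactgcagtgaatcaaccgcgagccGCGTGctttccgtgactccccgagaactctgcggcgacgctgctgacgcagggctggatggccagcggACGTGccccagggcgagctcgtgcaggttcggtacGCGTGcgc
Ndufa4, chr6:11907451-11907700, minus strand: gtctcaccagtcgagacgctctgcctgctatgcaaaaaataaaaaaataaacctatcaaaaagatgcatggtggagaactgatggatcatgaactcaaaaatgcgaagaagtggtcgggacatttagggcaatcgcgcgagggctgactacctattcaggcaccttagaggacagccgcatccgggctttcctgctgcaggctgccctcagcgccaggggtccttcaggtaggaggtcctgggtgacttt
The Bnip3 window held 2 matches to ACGTG, which are the strands of a single palindrome whose matches begin 107 and 108 bases before the start, and 3 to GCGTG. The second Hilpda start had 1 ACGTG and 2 GCGTG matches, whereas its other start had none of either in the window. Higd1a had 2 GCGTG matches, 66 and 70 bases before its start. The Ndufa4 window held neither motif. A match is a description of the letters only, and no binding was measured here.

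Ndufa4l2 (ENSMUSG00000040280, chromosome 10, 127514967 to 127517154, plus strand, GRCm38) was the member that rose in OIR. On the log2 CPM scale its level was 4.21, 3.87 and 4.51 in control mice 1, 6 and 7. It was 6.43, 6.22 and 6.37 in OIR mice 3, 5 and 6. It was 7.87, 6.71 and 6.40 in treated OIR mice 2, 5 and 10. Every OIR and treated OIR mouse was above every control mouse, and treated OIR mouse 2 was the highest of all, while treated OIR mouse 10 lay inside the OIR range. The mean level was 18.6 ± 4.09 CPM for controls, 81.1 ± 5.95 CPM for OIR and 141 ± 81.0 CPM for treated OIR (SD, n = 3 each). The fitted log2 fold change in OIR against control was 2.13 ± 0.35 (SE), a 4.38-fold difference, with an adjusted p of 0.0408 in edgeR's quasi-likelihood test with Benjamini-Hochberg adjustment over all genes, and it ranked 63 among the 17540 genes by log2 fold change. It was called in each of 11 other analysis settings and in 2 of the 9 fits that left out 1 mouse, those without treated OIR mouse 2 or 10. In the other 7 no gene of the whole table was called. Over all 9 its log2 fold change lay between 1.98 and 2.30, with edgeR adjusted p-values from 0.00361 to 0.163.

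Ndufa4 (ENSMUSG00000029632, chromosome 6, 11900292 to 11907497, minus strand) had no such rise. Its log2 CPM was 8.19, 7.89 and 8.49 in the control mice, against 8.03, 7.80 and 7.83 in the OIR mice. It was 7.84, 7.97 and 7.78 in treated OIR mice 2, 5 and 10. The groups overlapped, with control mouse 7 the highest and control mouse 6 inside the range of the others. The fitted log2 difference was -0.32 ± 0.15 in OIR against control (edgeR adjusted p = 0.240) and -0.35 ± 0.15 in treated OIR against control (edgeR adjusted p = 0.265), and -0.33 in the latter without treated OIR mouse 2.

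The balance of the pair was therefore read within each mouse, where library scaling cancels. Ndufa4l2 made up 7.37, 7.16 and 7.39% of the summed counts per kilobase of Ndufa4l2 and Ndufa4 in control mice 1, 6 and 7. Its share was 29.4, 29.7 and 31.5% in OIR mice 3, 5 and 6. Its share was 56.3, 34.6 and 32.6% in treated OIR mice 2, 5 and 10. The 3 groups did not overlap, and treated OIR mouse 2 was the only mouse in which Ndufa4l2 exceeded Ndufa4 on this scale. The group means were 7.31 ± 0.13%, 30.2 ± 1.1% and 41.2 ± 13.2% (SD, n = 3 each). The ratio of Ndufa4l2 to Ndufa4 was 5.46-fold higher in OIR than in control mice (log2 difference 2.45, two-sided exact permutation p = 0.1, 0.12 after adjustment over the 6 pair tests), and 0.1 is the smallest p that 3 mice against 3 allow.

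In treated OIR mice the Ndufa4l2 to Ndufa4 ratio was 8.73-fold that of controls (log2 difference 3.13, exact permutation p = 0.1). Against OIR it was 1.60-fold higher (log2 difference 0.68, exact permutation p = 0.1), with SDs of 0.78 in treated OIR and 0.08 in OIR mice. Without treated OIR mouse 2 the log2 differences were 2.68 and 0.23, the latter from 2 mice that both stayed above the 3 OIR mice. The shares depend on the gene length used. With the longest protein-coding transcript (934 bases for Ndufa4l2 and 610 for Ndufa4) in place of the deposited gene lengths (1095 and 1381 bases), they were 3.92 ± 0.07%, 18.3 ± 0.81% and 27.2 ± 11.2%, an alternative chosen after the data were seen. The log2 differences of the ratio between groups do not depend on the length, whereas the differences in share do.

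**Figure D1:**
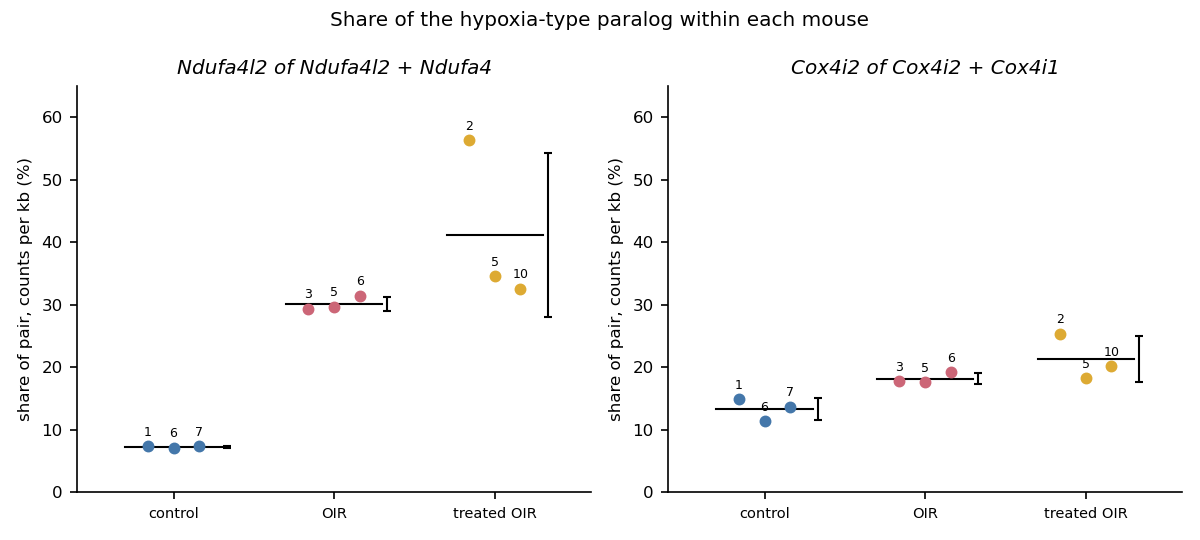
Share of the hypoxia-type paralog in the summed counts per kilobase of each pair (percent, vertical axis), by group. Points are mice with their numbers, lines are group means and bars are 1 SD; the mean Ndufa4l2 share is 7.31% in control and 30.2% in OIR mice without overlap, and the mean Cox4i2 share is 13.4% and 18.2%.

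Cox4i2 (ENSMUSG00000009876, chromosome 2, 152754173 to 152765037, plus strand) differed less. Its log2 CPM was 5.44, 4.80 and 5.47 in the control mice, against 5.48, 5.36 and 5.67 in the OIR mice. It was 6.17, 5.52 and 5.59 in treated OIR mice 2, 5 and 10. Control and OIR mice overlapped and control mouse 6 was the lowest, whereas all 3 treated OIR mice lay above all 3 control mice. The fitted log2 fold change was 0.24 ± 0.22 in OIR against control (edgeR adjusted p = 0.545). It was 0.52 ± 0.22 in treated OIR against control (edgeR adjusted p = 0.254), and 0.29 without treated OIR mouse 2.

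Cox4i1 (ENSMUSG00000031818, chromosome 8, 120668222 to 120674207, plus strand) was at 8.92, 8.72 and 9.10 log2 CPM in the control mice. It was at 8.67, 8.56 and 8.71 in the OIR mice, whereas the treated OIR mice were at 8.70, 8.65 and 8.55. Each OIR and treated OIR mouse was below each control mouse, with OIR mouse 6 just under control mouse 6. The fitted log2 difference was -0.28 ± 0.12 in OIR (edgeR adjusted p = 0.206) and -0.29 ± 0.12 in treated OIR (edgeR adjusted p = 0.251) against control, and -0.32 in the latter without treated OIR mouse 2.

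Within mice, the Cox4i2 share of its pair was 14.9, 11.4 and 13.7% in control mice 1, 6 and 7. For OIR mice 3, 5 and 6 it was 17.8, 17.6 and 19.3%, and for treated OIR mice 2, 5 and 10 it was 25.4, 18.3 and 20.1%. Both OIR groups were above all controls, and the 2 OIR groups overlapped. The ratio of Cox4i2 to Cox4i1 was 1.45-fold higher in OIR and 1.75-fold higher in treated OIR than in control mice (log2 differences 0.54 and 0.81, exact permutation p = 0.1 for each, 0.12 adjusted over the 6 tests). Treated OIR against OIR gave a 1.20-fold ratio (log2 difference 0.27, exact permutation p = 0.2, also 0.2 adjusted). Without treated OIR mouse 2, the log2 differences were 0.63 against control and 0.10 against OIR. With transcript lengths, the shares were 7.56 ± 1.07%, 10.6 ± 0.58% and 12.6 ± 2.44% in control, OIR and treated OIR mice.

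Per kilobase of the deposited gene lengths, the levels of the 8 genes could be set in order. The order depends on those lengths, and transcript lengths were tried only for the shares of the paralog pairs. In control mice Cox4i1 (314 ± 41.1 CPM per kilobase) and Ndufa4 (214 ± 44.1) led, and their ranges were separate from each other and from the rest. Cox4i2 (48.8 ± 11.8), Bnip3 (47.0 ± 7.71) and Bnip3l (44.4 ± 3.21) followed, with ranges that overlapped between neighbours. Higd1a (33.8 ± 3.66) came next, and Hilpda (17.5 ± 2.32) and Ndufa4l2 (16.9 ± 3.74) were lowest and overlapped.

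In OIR mice Ndufa4l2 came next after Ndufa4, at 74.1 ± 5.43 CPM per kilobase, separate from Ndufa4 (172 ± 15.5) above and from Cox4i2 (57.7 ± 6.27) below. The order of the other 7 genes was that of the control mice. In treated OIR mice Ndufa4l2 (129 ± 74.0 CPM per kilobase) had a range that overlapped that of Ndufa4 (168 ± 11.6), and all neighbours from Ndufa4 down to Higd1a (47.8 ± 19.0) overlapped.

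**Figure D2:**
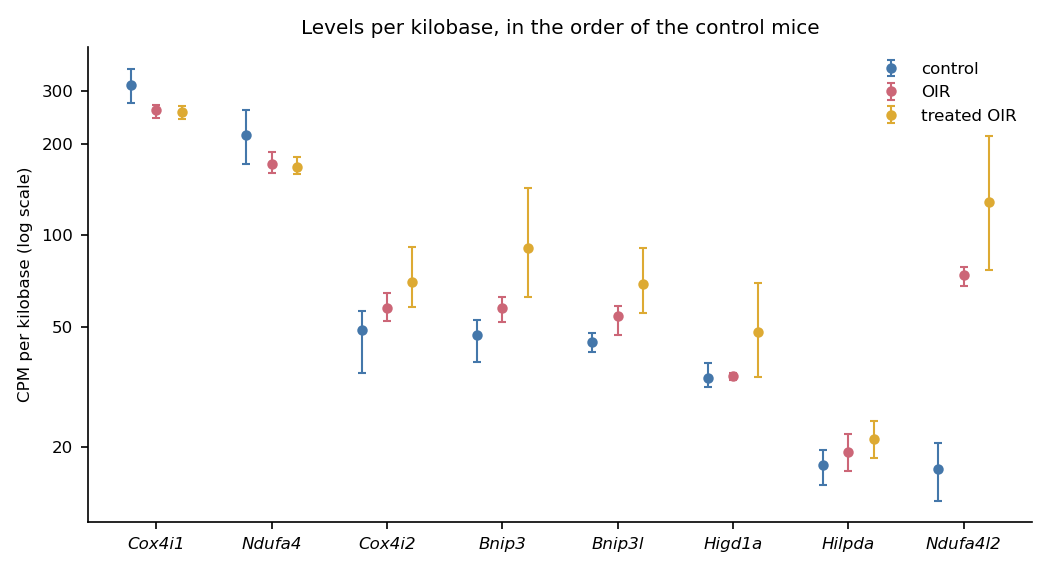
Level of each gene in CPM per kilobase (log axis) by group, with genes in the order of the control mice. Points are means of 3 mice and bars run from the lowest to the highest mouse; Ndufa4l2 is last in control mice, at 16.9, and next after Ndufa4 in OIR mice, at 74.1.

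Bnip3 (ENSMUSG00000078566, chromosome 7, 138890836 to 138909519, minus strand) was at 6.44, 6.83 and 6.90 log2 CPM in control mice 1, 6 and 7. It was at 7.05, 6.88 and 7.14 in OIR mice 3, 5 and 6. It was at 8.34, 7.25 and 7.14 in treated OIR mice 2, 5 and 10. OIR mouse 5 fell between the control mice, while all treated OIR mice were above all controls. The fitted log2 fold change was 0.29 ± 0.29 in OIR against control (edgeR adjusted p = 0.580). It was 0.95 ± 0.29 in treated OIR against control (edgeR adjusted p = 0.172), and 0.48 without treated OIR mouse 2.

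Bnip3l (ENSMUSG00000022051, chromosome 14, 66985239 to 67008877, minus strand) had the same order of groups. Its log2 CPM was 7.31, 7.42 and 7.52 in the control mice, against 7.81, 7.50 and 7.79 in the OIR mice. It was 8.45, 7.88 and 7.74 in treated OIR mice 2, 5 and 10. Again OIR mouse 5 was the one OIR mouse inside the control range, and all treated OIR mice were above it. The fitted log2 fold change was 0.29 ± 0.18 in OIR (edgeR adjusted p = 0.370) and 0.64 ± 0.18 in treated OIR (edgeR adjusted p = 0.163, and 0.40 as the change without treated OIR mouse 2) against control. Bnip3l is also known for its part in clearing organelles from lens fibre cells, and the mouse with the highest Bnip3l level was the one with 15.8% crystallin counts. The part of lens RNA in this value was not tested.

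Higd1a (ENSMUSG00000038412, chromosome 9, 121848563 to 121858362, minus strand) was at 6.59, 6.59 and 6.85 log2 CPM in the control mice and at 6.73, 6.71 and 6.66 in the OIR mice. It was at 7.72, 6.93 and 6.69 in treated OIR mice 2, 5 and 10. The 3 OIR mice lay within the control range, and treated OIR mouse 2 stood alone above the rest. The log2 difference in OIR against control was 0.02, with a 95% interval from -0.50 to 0.54 (edgeR adjusted p = 0.968). In treated OIR against control it was 0.50 ± 0.23 (edgeR adjusted p = 0.280), and 0.14 without treated OIR mouse 2.

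Hilpda (ENSMUSG00000043421, chromosome 6, 29272488 to 29275446, plus strand) was at 4.32, 4.05 and 4.44 log2 CPM in the control mice and at 4.61, 4.21 and 4.40 in the OIR mice. It was at 4.76, 4.54 and 4.35 in the treated OIR mice. All 3 groups overlapped. The log2 difference was 0.14 in OIR (95% interval -0.23 to 0.52, edgeR adjusted p = 0.646) and 0.29 in treated OIR (95% interval -0.09 to 0.66, edgeR adjusted p = 0.377) against control, and 0.18 in the latter without treated OIR mouse 2.

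**Figure D3:**
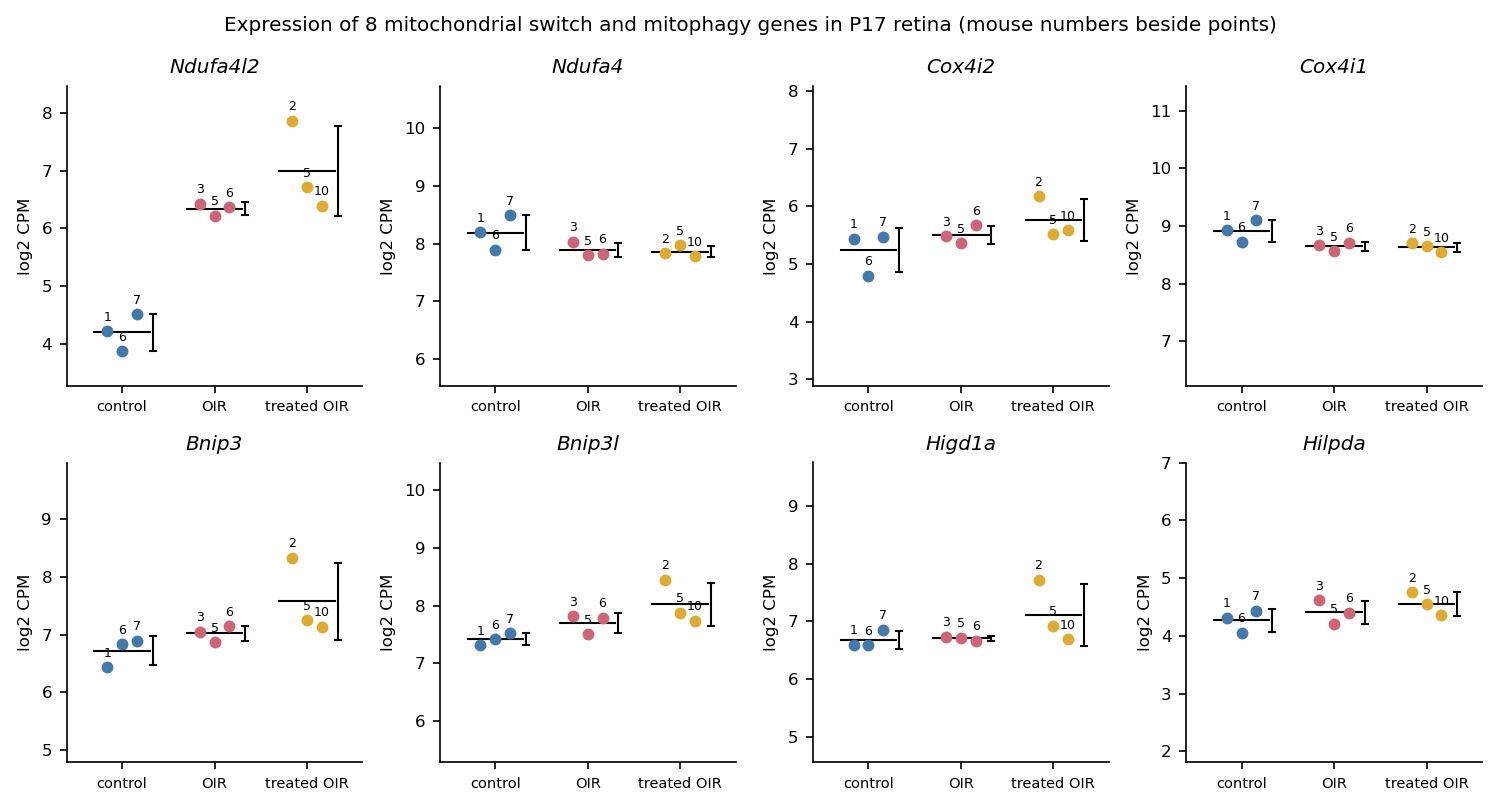
Log2 CPM of each gene by group, 1 panel per gene, each panel spanning the same number of log2 units. Points are mice with their numbers, lines are means and bars are 1 SD of 3 mice; Ndufa4l2 is the gene whose control mice (3.87 to 4.51) lie farthest below the OIR mice (6.22 to 6.43), and treated OIR mouse 2 is the highest point for Ndufa4l2, Cox4i2, Bnip3, Bnip3l, Higd1a and Hilpda.

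Across the 8 genes, 1 was called in OIR against control, against 0.941% of all genes tested. At an unadjusted p below 0.05 there were 2, Ndufa4l2 above 0 and Cox4i1 below it, against 23.8% of all genes. There was 1 gene with all OIR mice above all controls (15.9% of all genes) and 1 with all below (17.2%). The median log2 fold change of the 8 was 0.19, beside 0.03 for all genes.

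In treated OIR against control none of the 8 was called by edgeR, against 0.0228% of all genes. The nearest was Ndufa4l2, with a log2 fold change of 2.93 ± 0.36 and an adjusted p of 0.0586 in edgeR. Without treated OIR mouse 2 its change was 2.36 with an edgeR adjusted p of 0.00373, and over all alternatives its adjusted p ran from 6.39e-14 to 0.268. DESeq2 on all 9 mice called Ndufa4l2 and Bnip3, against 4.66% of the genes to which it gave an adjusted p. At an unadjusted p below 0.05 there were 6 of 8 (18.6% of all genes), with 4 genes higher in every treated mouse (12.8% of all genes) and 1 lower in every treated mouse (12.2%). The median of the 8 was 0.51, beside 0.01 for all genes. When treated OIR mouse 2 was left out, 4 of 8 had an unadjusted p below 0.05 (14.2% of all genes), and the median was 0.24, beside -0.01 for all genes.

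The direct comparison of treated OIR with OIR asks how these genes differed at day 17 after 32-134D. None of the 8 was called by edgeR (0.0% of all genes were), and none was called by DESeq2 on all 9 mice (0.174% of its genes were), by limma or in any other setting. At an unadjusted p below 0.05 there was 1, Ndufa4l2, against 4.69% of all genes. All 8 genes overlapped between the groups, whereas 3.74% of all genes were higher and 5.39% lower without overlap. The median of the 8 was 0.31, beside 0.01 for all genes, and none of the 6 hypoxia-linked genes had a fitted value below 0.

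The fitted log2 difference of Ndufa4l2 in treated OIR against OIR was 0.79 (95% interval 0.03 to 1.56). It was 0.66 for Bnip3 (-0.00 to 1.32), 0.48 for Higd1a (-0.04 to 1.002), 0.35 for Bnip3l (-0.07 to 0.76), 0.28 for Cox4i2 (-0.22 to 0.78) and 0.14 for Hilpda (-0.23 to 0.52). It was -0.03 for Ndufa4 (-0.37 to 0.32) and -0.01 for Cox4i1 (-0.29 to 0.26). Each edgeR adjusted p was 0.9998, which does not show that the groups were alike.

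Much of that difference lay in a single mouse. Without treated OIR mouse 2 the log2 differences were 0.25 for Ndufa4l2, 0.20 for Bnip3, 0.14 for Higd1a, 0.13 for Bnip3l, 0.07 for Cox4i2 and 0.06 for Hilpda. For Ndufa4 and Cox4i1 they were 0.01 and -0.02. The 95% interval of Ndufa4l2 was then -0.14 to 0.63, and that of Bnip3 -0.12 to 0.52. None of the 8 had an unadjusted p below 0.05 (13.0% of all genes did), and the median was 0.10, beside 0.01 for all genes. All 6 hypoxia-linked genes were still above 0 and none was called, with edgeR adjusted p-values from 0.642 for Ndufa4l2 to 0.945 for Hilpda (for Ndufa4l2, from 0.435 to 1.0 over all alternatives). That mouse carried the lens RNA given above. With the lens marker level as a covariate and all 9 mice, the difference was 0.47 for Ndufa4l2 and 0.19 for Cox4i2. None of the 8 was called in that fit. The lens level was far highest in the same mouse, so that fit cannot separate lens RNA from its other traits. The part of lens RNA in these values was therefore not tested.

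**Figure D4:**
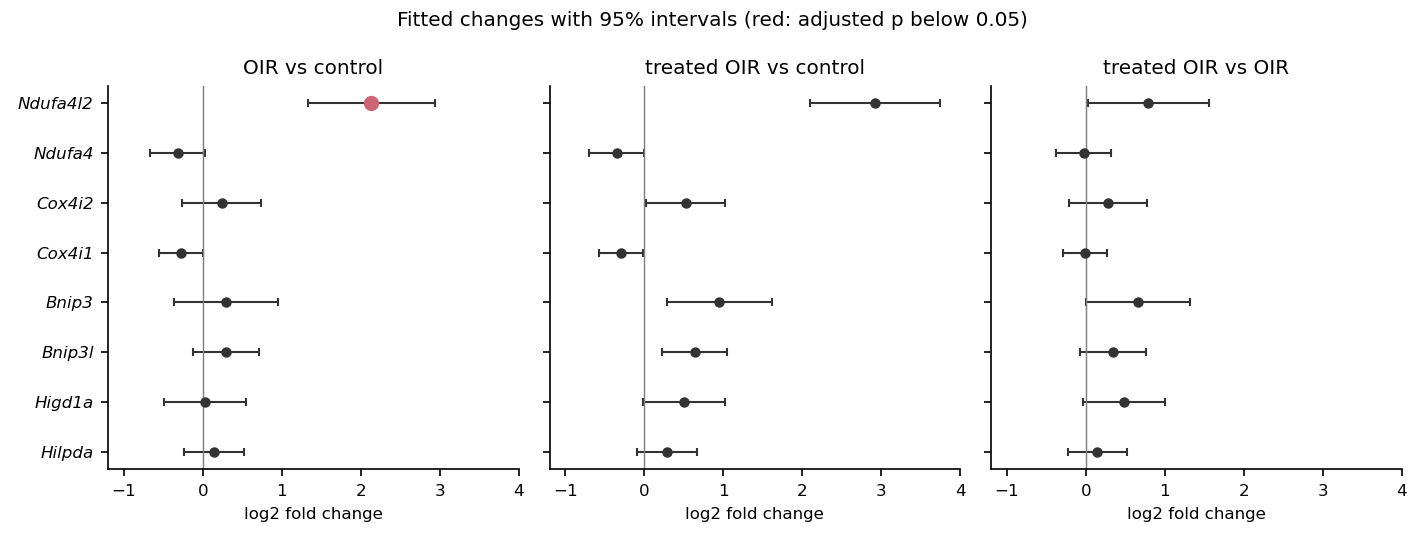
Fitted log2 fold change (horizontal axis) of each gene in the 3 comparisons, with 95% intervals from 3 mice per group; red marks an adjusted p below 0.05. Ndufa4l2 in OIR against control (2.13) is the only red point, and the intervals for treated OIR against OIR lie near or across 0.

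**Figure D5:**
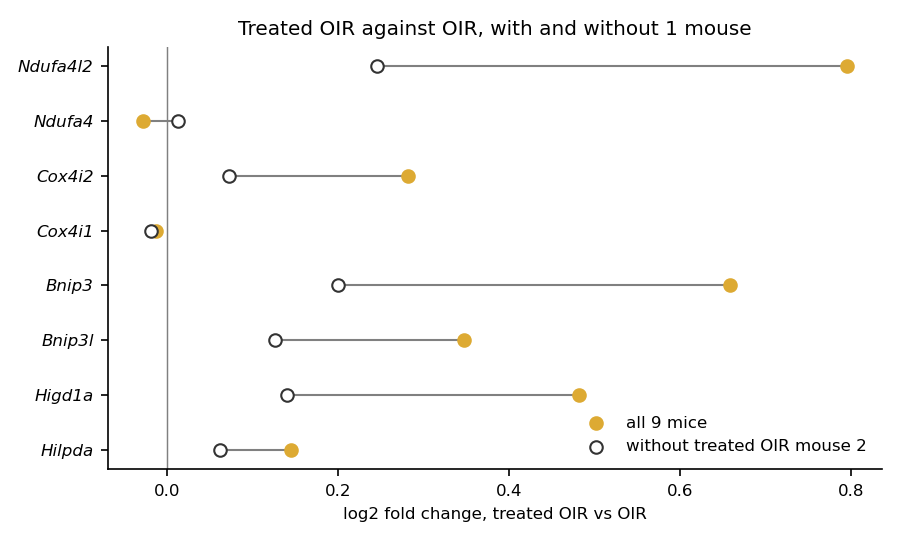
Log2 fold change of treated OIR against OIR with all 9 mice (filled) and without treated OIR mouse 2 (open). The values of the 6 hypoxia-linked genes move towards 0, for Ndufa4l2 from 0.79 to 0.25, and those of Ndufa4 and Cox4i1 stay within 0.03 of 0.

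Vascular mural cells were examined because Ndufa4l2, Cox4i2 and Higd1b are known to be abundant in pericytes, the contractile cells of capillaries. The 7 pericyte markers, all counted in every mouse, summed to 201, 188 and 199 CPM in control mice 1, 6 and 7. The sums were 301, 189 and 94.7 CPM for OIR mice 3, 5 and 6, with 111, 382 and 442 CPM for treated OIR mice 2, 5 and 10. The 2 lowest sums were in OIR mouse 6 and treated OIR mouse 2, with Ndufa4l2 at 6.37 and 7.87 log2 CPM. The 3 highest were in OIR mouse 3 and treated OIR mice 5 and 10, with Ndufa4l2 at 6.43, 6.71 and 6.40. Rgs5 made up much of the sum (38.3 to 321 CPM). Des was at 4.95, 6.68 and 6.17 CPM in treated OIR mice 2, 5 and 10. It was at 2.03 to 2.45 CPM in control and 1.84 to 3.26 CPM in OIR mice. The 6 endothelial markers, like the pericyte sum, were lowest in OIR mouse 6 and treated OIR mouse 2, at 73.0 and 78.3 CPM, against 129 to 278 CPM elsewhere. The 4 markers of smooth muscle, also mural cells, did not follow the pericyte sum. They summed to 109 CPM in control mouse 1, 67.4 CPM in treated OIR mouse 2 and 9.09 to 33.9 CPM elsewhere. Acta2 made up much of this sum in treated OIR mouse 2, at 62.8 CPM. The 6 Müller glia markers summed to 5757 to 6310 CPM in control, 7317 to 9230 CPM in OIR and 4218 to 5915 CPM in treated OIR mice. Apoe and Glul made up much of that sum, and the markers did not move as a set. Slc1a3 was at 151 to 178 CPM in control, 261 to 390 CPM in OIR and 232 to 286 CPM in treated OIR mice. In treated OIR mouse 2 Vim was the highest of all mice, at 1071 CPM, whereas Glul, Rlbp1 and Aqp4 were the lowest. The part of these cell types in the members' values was not tested.

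Another 19 mitophagy receptors and regulators and 20 genes of the core autophagy machinery were set beside Bnip3 and Bnip3l. None of the 19 and none of the 20 was called by edgeR in any of the 3 comparisons, and in OIR against control 5 of each had an unadjusted p below 0.05, against 23.8% of all genes. DESeq2 on all 9 mice called 2 of the 19 (Fkbp8 and Sqstm1, both lower) and 3 of the 20 (Wipi1 higher, Map1lc3a and Gabarapl1 lower) in that comparison, where it called 10.6% of the genes to which it gave an adjusted p. In treated OIR against control it called Fkbp8 and Map1lc3a lower and Wipi1 higher (4.66% of its genes were called). These and the other genes named below from DESeq2 alone were chosen after their values were seen. The medians in OIR against control were -0.06 and 0.02. The largest changes there were those of Nipsnap1, a mitochondrial matrix protein that serves as a mitophagy signal, at -0.37 ± 0.15 (edgeR adjusted p = 0.181), and of Wipi1, which binds phosphoinositides on forming autophagosomes, at 0.73 ± 0.15 (edgeR adjusted p = 0.0602). Wipi1 was at 5.91, 6.13 and 5.93 log2 CPM in the control mice and at 6.76, 6.50 and 6.87 in the OIR mice, without overlap. Of all genes 15.9% were higher in OIR without overlap. Wipi1 was at 7.02, 6.54 and 6.54 in treated OIR mice 2, 5 and 10. In treated OIR against OIR the medians were 0.01 and -0.00, and -0.00 and 0.05 without treated OIR mouse 2. The largest difference among the 20 was 0.21 ± 0.10 for Ulk1, the kinase that starts autophagy (edgeR adjusted p = 0.9998).

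A list of 14 other nuclear-encoded cytochrome c oxidase genes, tissue isoforms among them, was set beside the pair of subunit IV isoforms. None was called by edgeR, whereas 6 had an unadjusted p below 0.05 in OIR against control (23.8% of all genes did) and DESeq2 on all 9 mice called 2 there (10.6% of its genes), Cox5a and Cox8a, both lower. A total of 13 of 14 had a fitted value below 0 in OIR and in treated OIR against control, where 9382 and 9008 of all 17540 genes were above 0. Their medians were -0.32 and -0.29, close to the -0.28 and -0.29 of Cox4i1, beside 0.03 and 0.01 for all genes. DESeq2 on all 9 mice called Cox5a and Cox8a lower in treated OIR against control as well (4.66% of its genes were called). In treated OIR against OIR the median was 0.00, with 7 values above 0 and 7 below. Leaving out treated OIR mouse 2 gave medians of -0.38 against control and -0.04 against OIR. The exception in OIR was Cox6a2, the muscle-type isoform of subunit VIa, at 1.91 ± 1.12 (edgeR adjusted p = 0.333), which rested on 88 counts in OIR mouse 6 against 6 and 19 in the other OIR mice. In treated OIR against OIR Cox6a2 was at -0.65 ± 1.06 (edgeR adjusted p = 0.9998).

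Of the 4 genes of the Higd family and Lonp1 3 passed the filter, Higd1c did not, and none was called by edgeR, DESeq2 or limma, with 1 at an unadjusted p below 0.05 in OIR against control (23.8% of all genes). Higd1b, the pericyte-enriched relative of Higd1a, had 99, 42 and 22 counts in control mice 1, 6 and 7. Its counts were 95, 80 and 24 in OIR mice 3, 5 and 6, against 7, 117 and 107 in treated OIR mice 2, 5 and 10. Its lowest value was thus in the mouse with the highest Higd1a, and its log2 differences were 0.49 ± 0.84 in OIR against control (edgeR adjusted p = 0.768) and 0.41 ± 0.83 in treated OIR against OIR (edgeR adjusted p = 0.9998).

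Of 15 lipid droplet and lipolysis genes set beside Hilpda, 13 were tested and none was called by edgeR, with 4 at an unadjusted p below 0.05 in OIR against control (23.8% of all genes) and medians of -0.08 in OIR and -0.32 in treated OIR against control, the latter -0.18 without treated OIR mouse 2. G0s2, which like Hilpda inhibits the triglyceride lipase ATGL, was at 1.74, 0.80 and 1.59 log2 CPM in the control mice and at -0.65, -0.41 and 0.35 in the OIR mice. Its groups did not overlap and its log2 difference was -1.71 ± 0.41 (edgeR adjusted p = 0.0701), while that of Hilpda was 0.14. DESeq2 on all 9 mice called 2 of the list there (10.6% of its genes), G0s2 and Mgll, both lower. Plin1, a coat protein of lipid droplets, gave -1.81 ± 0.74 in treated OIR against OIR (edgeR adjusted p = 0.9998) from 1 to 18 counts per mouse in those groups.

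A list of 15 textbook HIF target genes gave the wider setting. All 15 had fitted values above 0 in each of the 3 comparisons. The medians were 0.25 in OIR against control, 0.60 in treated OIR against control and 0.45 in treated OIR against OIR. In that order, 9382, 9008 and 9001 of all 17540 genes were above 0. At an unadjusted edgeR p below 0.05 there were 3, 10 and 0 of the 15, against 23.8%, 18.6% and 4.69% of all genes. With treated OIR mouse 2 left out, 13 of 15 were above 0 against control (median 0.26) and 9 of 15 against OIR (median 0.03). The unadjusted counts were then 6 and 0 of the 15, against 14.2% and 13.0% of all genes. These comparisons share their groups and are not independent of each other. The gene called by edgeR was Adm, which encodes the vasoactive peptide adrenomedullin, at 2.84 ± 0.53 in OIR against control (edgeR adjusted p = 0.0496). Of all genes 0.941% were called there. Adm was at 1.73, 1.22 and 0.41 log2 CPM in the control mice and at 4.12, 3.58 and 4.31 in the OIR mice, without overlap, as Ndufa4l2 was. DESeq2 on all 9 mice called Adm and Vegfa, the main angiogenic factor, in that comparison (10.6% of its genes). In treated OIR against control it called Adm, Egln1 and Vegfa, all higher (4.66% of its genes). Averaged over the 15 genes, log2 CPM exceeded its control mean by 0.63, 0.44 and 0.94 for OIR mice 3, 5 and 6. The excess was 1.86, 0.65 and 0.50 for treated OIR mice 2, 5 and 10. Treated OIR mouse 2 was thus the highest for this list as well as for the 6 hypoxia-linked members. Car9, the HIF-induced carbonic anhydrase, had 413 counts in that mouse against 18 and 19 in the other treated OIR mice. It had 31, 15 and 170 counts in OIR mice 3, 5 and 6. Its log2 difference in treated OIR against OIR was 1.49 ± 1.29 with all 9 mice (edgeR adjusted p = 0.9998). It was -1.66 without treated OIR mouse 2 and 2.997 without OIR mouse 6, so its sign depended on single mice.

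The members differed in which genes they resembled over the 9 mice. Likeness was Pearson's r of log2 CPM among 13978 genes with a mean log2 CPM of at least 1, and is a description only, since the points share the groups, the depth and treated OIR mouse 2. Bnip3 was most like Pdk1, a kinase that inhibits pyruvate dehydrogenase (r = 0.998, and 0.990 without treated OIR mouse 2), then Triobp (0.986) and Slc2a1, the glucose transporter GLUT1 (0.982). Bnip3l was most like Egln1, the prolyl hydroxylase PHD2 that marks HIF for degradation (r = 0.994, and 0.983 without that mouse), then Bnip3 (0.972) and Mtpn (0.971). Ndufa4l2 was most like Rnf19a (0.984), Apln, the vascular peptide apelin (0.978, and 0.984 without that mouse), and Bcar3 (0.976).

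Higd1a was most like Fam162a, Pgk1, the glycolytic phosphoglycerate kinase, and Kdm4b, with r = 0.963, 0.961 and 0.957. Without treated OIR mouse 2 these were 0.698, 0.698 and 0.759. Cox4i2 was most like Eif4a1 (0.953), Lars (0.940) and Dynlt3 (0.940), and Hilpda was most like the predicted genes Gm2223 (0.969), Gm9776 (0.946) and Gm11703 (0.938). The constitutive partners kept to other company. Ndufa4 was most like Rbx1 (0.970), Commd9 (0.963) and Dut (0.955), and Cox4i1 was most like Prmt1 (0.985), Emc4 (0.983) and Usmg5, a subunit of ATP synthase (0.978).

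Among the members themselves, Ndufa4 and Cox4i1 varied together (r = 0.924, and 0.936 without treated OIR mouse 2), as did Bnip3 and Bnip3l (0.972 and 0.929). Each hypoxia-type gene was far from its own constitutive paralog, with r = -0.557 for Ndufa4l2 and Ndufa4 and r = -0.066 for Cox4i2 and Cox4i1. Bnip3 and Higd1a went from 0.925 to 0.572 when that mouse was left out.

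Sequence shared with other genes could mix counts for some members. No stretch of 50 bases in any annotated transcript of Ndufa4l2, Ndufa4, Cox4i2 or Hilpda occurred in another gene, and no 2 members shared one, so the paralog pairs were not confused at that length. Bnip3l shared 20.8% of its stretches with its pseudogene Bnip3l-ps, which held 128 to 381 counts per mouse against 2848 to 5519 for Bnip3l. Bnip3 shared 33.9% with AC160336.1, which held 2 to 17 counts against 1845 to 5100. Cox4i1 shared 6.23% with Emc8 on the opposite strand, which held 1632 to 2680 counts, and Ndufa4l2 overlapped Shmt2 on the opposite strand by 32 bases. Whether the counting used strand is not given in the sources used here, so reads in those overlaps cannot be told apart.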

How the data were processed

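Total RNA was sequenced by the authors as bulk Illumina libraries, and CASAVA and HISAT are named in the submitters' processing notes. The deposited table holds raw, whole-number counts per gene for the 9 mice (1 column per mouse, 0 columns unmapped), and the counting tool, its strand setting and the annotation release are not given in the sources used here. Gene positions were those of GRCm38. Mice were grouped by the treatment and animal model labels. Counts were fitted with edgeR 4.0.16 (R 4.3.3), using TMM scaling, filterByExpr by group, 1 mean per group over all 9 mice, and quasi-likelihood tests with Benjamini-Hochberg adjustment over 17540 genes, where a call was an adjusted p below 0.05. Log2 CPM used a prior count of 2. Levels between genes were CPM divided by the deposited gene length in kilobases. The log2 ratio of counts per kilobase within a mouse was compared by a two-sided exact permutation test. Alternatives were other scalings and filters, a robust fit, a lens marker covariate, fits on the 2 groups compared, limma 3.58.1 with voom quality weights, DESeq2 1.42.0 and leaving out each mouse. The fit was also run on simulated counts, which held no outlying mouse and so do not test it under the spread of these data. The genes, lists and tests were chosen with earlier results of these data known. The text names the 8 genes, list genes with an adjusted p below 0.05 or the largest change in OIR against control or in treated OIR against OIR, and the 3 genes most like each member. Precision is limited by 3 mice per group and, for genes with few counts, by counting error. The value of 1 list gene that this rule names is not reported here.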

Additional observations from a re-analysis of the deposited data

How the results depend on the processing

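Of the member values over 20 alternatives per comparison, 150 of those for OIR against control, 152 for treated OIR against control and 154 for treated OIR against OIR kept their direction and side of the threshold. In treated OIR against control the count of members called went from 0 to 1 with scaling by total counts alone, without a filter, with limma voom and with DESeq2 on the 2 groups, and to 2 with DESeq2 on all 9 mice, where Bnip3 had an adjusted p of 0.0406 (range over its alternatives 0.0406 to 0.324). Leaving out 1 mouse gave 0 to 1 members called in OIR against control and 0 to 1 in treated OIR against control, from Ndufa4l2 alone. Over all genes, the 165 calls in OIR against control became 0 in 7 fits that left out a mouse, 2272 without treated OIR mouse 2 and 2532 with DESeq2 on the 2 groups, and the cause was not tested. Values near 0 changed sign: Ndufa4 in treated OIR against OIR was 0.015 with limma and -0.085 to 0.05 leaving out mice, Cox4i1 there was -0.054 to 0.028 leaving out mice, and Higd1a in OIR against control was -0.07 with the lens covariate and -0.025 to 0.12 leaving out mice. Car9 in treated OIR against OIR was -0.95 with the lens covariate, -0.52 with limma, and -1.66 without treated OIR mouse 2 to 2.997 without OIR mouse 6. Cox6a2 there ran from -2.73 without treated OIR mouse 2 to 0.857 without OIR mouse 6, and Higd1b from -0.134 without treated OIR mouse 5 to 0.974 without treated OIR mouse 2. No scaling moved the median of all genes by over 0.1. No paired analysis was run because the labels give no pairing of mice between groups.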
